A study of Homo sapiens with 6 samples.

Results

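The baseline transcriptome of vector-control MIA PaCa-2 cells is described here from 3 of the 6 libraries of the series, chosen because their labels name the vector control. MIA PaCa-2 is an established human pancreatic carcinoma line. The cells carried the empty pCDH vector, a lentiviral expression backbone, and had no other labelled agent or allele, and they were grown in DMEM with fetal bovine and horse serum. The other 3 libraries, from the same line overexpressing the long noncoding RNA LINC00901, were not analysed here. The labels call the cells epithelial and do not say whether they were a clone or a pool. They also do not say whether the 3 replicates were separate cultures, so the spread between them may be technical.

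Most pancreatic carcinomas have features of the ducts, the epithelial tubes that carry digestive enzymes out of the gland. The gland also holds acinar cells, which make those enzymes, and islet cells, which make hormones. Epithelial cells are held together by cadherin junctions and built on keratin filaments, whereas mesenchymal cells rely on vimentin filaments, and carcinoma cells can have parts of both programmes. The genes most often altered in this cancer include the tumour suppressors CDKN2A and SMAD4.

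Values are FPKM, fragments scaled to gene length and library total, so levels can be set beside each other between genes. There are 18268 rows in the table, and 990 of them carry the names of 2 or more genes at once. Such a joined row is given with all its names, since the value may belong to any of them. A row is called expressed when it had at least 1 FPKM in each of the 3 libraries. By that rule 8858 rows (48.5%) were expressed, with a median of 5.03 FPKM, and 4588 rows (25.1%) were listed at 0 in all 3. Another 3616 rows (19.8%) stayed under 1 FPKM in every library, and 1206 (6.6%) reached 1 FPKM in some libraries only. These shares over all rows are the background to set beside each list count below. Joined rows were expressed more often (77.9%) than rows of a single name (46.8%), and list counts include them. The 13 mitochondrially encoded rows, from MT-ND1 to MT-CYB, were all listed at 0 although every cell uses these genes. A 0 in this table can therefore be a failed estimate, and silent rows are given only as listed at 0.

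The 3 libraries had much the same overall shape. Their FPKM values summed to 87162, 87187 and 88738. Rows above 0 numbered 12728 to 12807, rows of at least 10 FPKM 1953 to 1989, and rows of at least 100 FPKM 64 or 65. The 10 highest rows took 5.16% ± 0.186 (SD, n = 3) of a library's sum, the 100 highest 17.97% ± 0.285 and the 1000 highest 49.2% ± 0.160. Between 1035 and 1052 rows were needed to reach 50% of the sum. The sequencing depth behind these values is unknown, so no counting interval can be given.

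**Figure D1:**
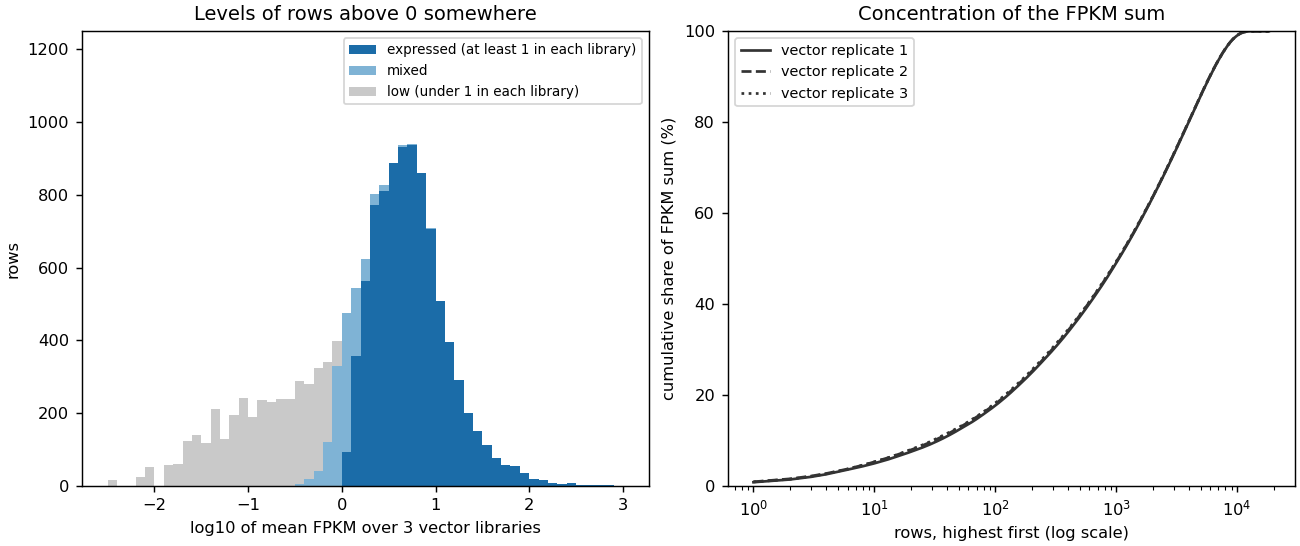
Left, stacked histogram of log10 mean FPKM over the 3 vector libraries for rows above 0 in at least 1 library, coloured by class; right, cumulative share of each library's FPKM sum against rows ordered from the highest, on a log axis, with 1 line per replicate. The expressed rows form a single peak around their median of 5.03 FPKM with a tail of low rows to the left, and the 3 cumulative lines lie nearly on each other, reaching 50% of the sum at 1035 to 1052 rows.

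The highest levels belonged to genes of the cytoskeleton, protein synthesis and protein folding. TMSB4X, the actin monomer-binding thymosin beta-4, came first with 691, 772 and 755 FPKM in replicates 1, 2 and 3 (mean 739 ± 42.8 SD, n = 3). EEF1A1, which brings aminoacyl-tRNA to the ribosome, followed with 520.3, 567 and 538 FPKM. The cytoplasmic actin ACTG1 had 511, 540.1 and 529 FPKM. These 3 rows held the first 3 ranks by mean, and the ranges of EEF1A1 and ACTG1 overlapped.

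The promoters of these 3 genes are shown because they head the ranking, and that of PRSS1, the acinar protease cationic trypsinogen, is shown as a contrast chosen after its values were seen, since it was listed at 0 in all 3 libraries. Each line gives the 100 bases just before the annotated start from RefSeq (GRCh38.p14), 5′ to 3′ on the gene's strand, with CG pairs in capitals.
TMSB4X: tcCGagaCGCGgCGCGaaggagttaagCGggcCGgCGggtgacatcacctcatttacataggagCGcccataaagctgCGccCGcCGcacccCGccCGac
EEF1A1: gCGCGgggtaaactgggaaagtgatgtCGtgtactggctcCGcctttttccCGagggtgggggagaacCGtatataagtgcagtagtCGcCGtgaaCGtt
ACTG1: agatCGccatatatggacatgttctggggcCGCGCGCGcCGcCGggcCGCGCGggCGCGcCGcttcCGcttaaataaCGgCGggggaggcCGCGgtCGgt
PRSS1: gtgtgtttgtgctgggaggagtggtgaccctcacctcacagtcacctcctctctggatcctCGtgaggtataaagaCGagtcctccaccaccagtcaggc
They lie at chrX:12975010-12975109 (plus strand), chr6:73521033-73521132 (minus strand), chr17:81512800-81512899 (minus strand) and chr7:142749372-142749471 (plus strand). The stretches hold 14, 9, 19 and 2 CG pairs. Over the full 300-base window, from 250 bases before to 50 after the start, the counts were 27 for TMSB4X, 24 for EEF1A1, 50 for ACTG1 and 4 for PRSS1. Of the 35116 promoters of that length in the table, 33.9% hold at least 24 CG pairs and 33.7% at most 5, with a median of 14. The letters TATA, which read the same on both strands, were searched between 40 and 20 bases before the start, where 5.91% of promoters hold them, and were found for EEF1A1 and PRSS1. These matches describe the sequences only.

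Below the first 3 ranks, the chaperone HSP90AB1 had 493, 479 and 495 FPKM and the actin ACTB 409, 389.6 and 425 FPKM. PRDX1, a peroxide-reducing enzyme, had 307, 325 and 308 FPKM. FTL, the light chain of the iron store ferritin, had 336, 313 and 290.2 FPKM. In each of these rows the libraries lay close to each other compared with the distance to the median row of 1.22 FPKM. Rows of replication-dependent histones were also among the 25 highest: HIST1H4D (mean 415), HIST1H4B (315), HIST1H2BO (192) and HIST1H2AH (167 FPKM). Histone genes are short and near-identical copies can share reads, so the level of a single histone row is uncertain.

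The remaining rows among the 25 highest included genes of other kinds. SLC38A2, a neutral amino acid transporter, had 241, 243 and 243 FPKM (242 ± 1.23 SD, n = 3). ALDH1A1, which makes retinoic acid from retinal, had 231, 229.5 and 231 FPKM (230.4 ± 0.833). VIM, which encodes vimentin, had 238, 198 and 250.5 FPKM. COL3A1, the chain of type III collagen, had 170.2, 170.7 and 185 FPKM. S100A6, a calcium-binding protein, had 196, 194 and 163 FPKM. ALDH1A1 and SLC38A2 were among the 10 rows of smallest relative spread at a mean of at least 10 FPKM, so both were high and close between libraries.

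In 2 of the 25 highest rows a single library stood apart. HSP90AA1, the stress-inducible cytosolic HSP90, had 187 and 173 FPKM in replicates 1 and 2 and 410.2 FPKM in replicate 3. The joined row of WDR74 and TEX54 had 139 FPKM in replicate 1, against 483 and 519 FPKM in replicates 2 and 3. For both rows the mean (257 ± 133 and 381 ± 210.1 FPKM, SD, n = 3) describes no library well.

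Markers of the labelled epithelial cell type were divided, with KRT18 high and EPCAM, CDH1 and ESRP1 at or near 0. Simple-epithelial keratin KRT18 had 105, 90.9 and 104 FPKM, and the joined row of its partner KRT8 with KRT78 had 19.7, 27.8 and 26.2 FPKM. KRT19 was lower at 2.22, 2.98 and 5.92 FPKM. KRT7 reached 1 FPKM only in replicate 1 (1.03, 0.41 and 0.18 FPKM), and KRT20 was listed at 0 in all 3. Among other markers of the fixed epithelial panel, EPCAM, an epithelial surface adhesion molecule, had 0.14, 0 and 0.13 FPKM. CDH1, which encodes E-cadherin, had 0, 0.06 and 0 FPKM, and the splicing regulator ESRP1 was listed at 0 in all 3. The joined row of CTDNEP1, GABARAP and CLDN7 had 8.5, 9.27 and 8.2 FPKM, and CLDN4 was expressed too. In all, 5 of the 9 rows of this panel were expressed, and 2 of these were joined. KRT18 and the joined KRT8 row were thus high in every library, whereas EPCAM, CDH1 and ESRP1 were at or near 0.

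Among 39 rows of epithelial junction and identity genes, 15 were expressed and 11 listed at 0, with a median of 0.40 FPKM against 1.22 FPKM over all rows. CTNNB1, the cadherin-bound beta-catenin, had 24.8, 24.3 and 21.9 FPKM, and its partner CTNNA1 had 16.2, 19.9 and 19.7 FPKM. The joined row of SNX5 and OVOL2 had a mean of 18.05 FPKM, and that of CTNND1 with SELENOH and TMX2 a mean of 17.9 FPKM. The catenins were therefore well expressed where E-cadherin itself was not. CLDN4, a tight junction claudin, had 9.68 and 10.99 FPKM in replicates 1 and 2 and 2.69 FPKM in replicate 3. EHF, an epithelial transcription factor of the ETS family, had 20.5, 14.1 and 1.38 FPKM, so replicate 3 was low for both genes. Of 20 rows of keratins of stratified epithelia, 3 were expressed, the joined KRT8 and KRT78 row, KRT80 (4.34 ± 0.870 FPKM) and KRT10 (2.62 ± 0.521 FPKM), and 14 were listed at 0.

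Genes of the mesenchymal state were a mixture. Of 20 rows 6 were expressed and 1 was listed at 0, with a median of 0.51 FPKM. VIM was the highest by far, at rank 18 of the table. The joined row of ENTPD4 and LOXL2, which includes a collagen cross-linking oxidase, had 21.9, 23.4 and 24.97 FPKM. AXL, a receptor kinase often high in mesenchymal carcinoma cells, had 14.6, 16.3 and 17.7 FPKM. The repressor of E-cadherin ZEB1 had 3.19, 2.61 and 3.39 FPKM, while ZEB2 was at or under 0.02 FPKM in each library. N-cadherin, encoded by CDH2, had 0.56, 0.34 and 0.47 FPKM, so neither classical cadherin reached 1 FPKM.

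**Figure D2:**
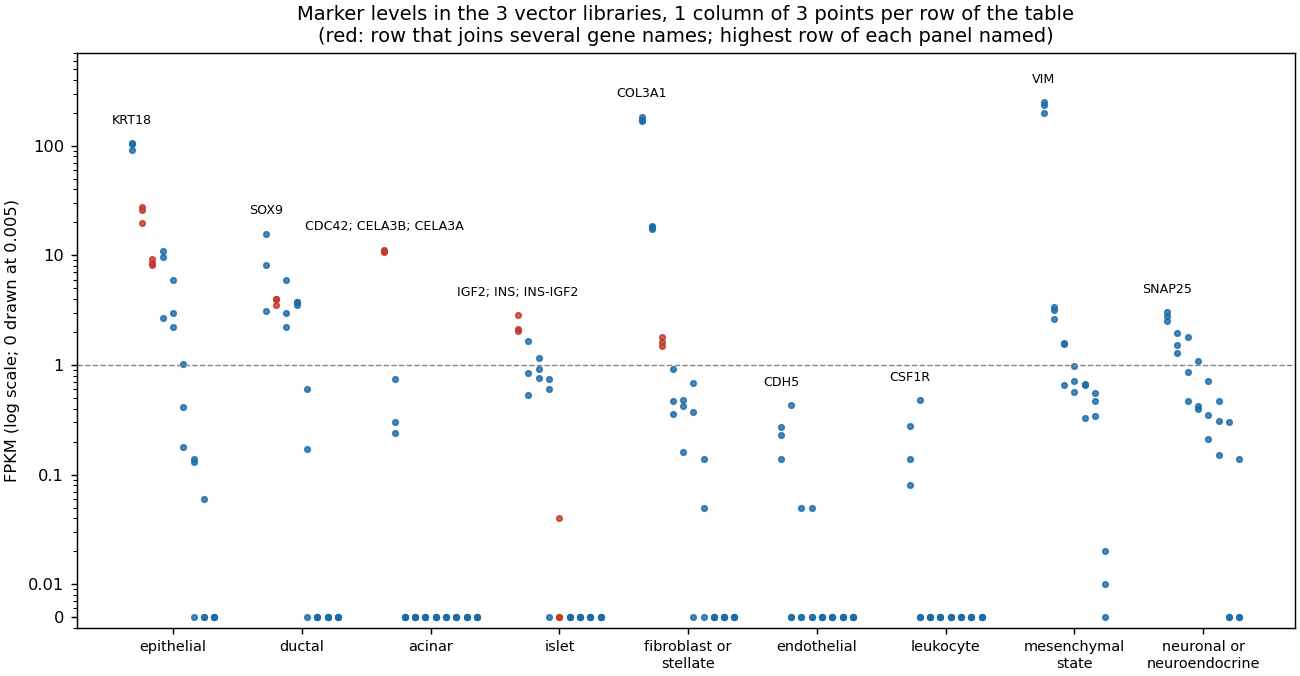
FPKM of marker rows in the 3 vector libraries on a log axis, with 1 column of 3 points per row of the table and rows ordered by mean within 9 marker panels; 0 is drawn at 0.005, red points are rows that join several names, and the dashed line is at 1 FPKM. KRT18, VIM and COL3A1 stand above 90 FPKM in every library, whereas all endothelial and leukocyte markers lie under 1 FPKM.

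Of 16 ductal rows 4 were expressed and 7 listed at 0, with a median of 0.15 FPKM. SOX9, a ductal and progenitor transcription factor, had 15.9, 8.19 and 3.08 FPKM in replicates 1, 2 and 3. The joined row of KRTCAP2 and the mucin MUC1 had 4.02, 3.52 and 4.04 FPKM, and ANXA4, an annexin of ductal epithelium, had 3.75, 3.54 and 3.75 FPKM. The chloride channel CFTR and the trefoil peptides TFF1, TFF2 and TFF3 were listed at 0 in every library. The ductal panel thus rested on SOX9, KRT19, ANXA4 and a joined row. SOX9 varied the most of these, from 3.08 to 15.9 FPKM, and its mean of 9.04 FPKM was 5.64 FPKM without replicate 1.

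Of 28 acinar rows, which hold digestive enzyme genes, 20 were listed at 0, and both expressed rows joined an enzyme to a gene of another kind. These were CDC42 with CELA3B and CELA3A (10.8, 11.3 and 10.95 FPKM) and RNPC3 with AMY2B (2.20, 1.02 and 1.64 FPKM). PRSS1, PRSS2, CPA1, CPB1, PNLIP and AMY2A were listed at 0 in each library. Of 24 islet rows, the joined row of IGF2, INS and INS-IGF2 was the only one expressed (2.84, 2.11 and 2.06 FPKM). Among the 11 listed at 0 were the hormone genes GCG, SST, PPY and IAPP. The hormone gene GHRL was mixed, with 1.47, 0.81 and 2.91 FPKM. CHGA (0.53, 0.85 and 1.64 FPKM) and MAFA (0.92, 0.76 and 1.15 FPKM) reached 1 FPKM in replicate 3 only. No acinar or islet row with a single gene name was expressed in all 3 libraries.

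Transcription factors that set pancreatic lineage were listed at 0 more often than expressed. Of 23 rows, none of which were joined, 6 were expressed and 9 were listed at 0, with a median of 0.05 FPKM. Besides SOX9, the expressed rows were TP63, a squamous lineage factor, with 3.48, 4.0 and 4.2 FPKM, GATA4, an endodermal factor, with 1.37, 1.99 and 1.69 FPKM, and KLF5, an epithelial factor, with 2.26, 1.59 and 1.19 FPKM. The Notch effector RBPJ (1.5 ± 0.410 FPKM) and the nuclear receptor NR5A2 (1.40 ± 0.0208 FPKM) were expressed too. Those listed at 0 included PDX1, PTF1A, RBPJL, GATA6, FOXA2, HNF4A and HNF4G. FOXA1 had 0, 0.35 and 0.08 FPKM. HHEX (0.53, 2.27 and 1.5 FPKM) and MNX1 (0.87, 1.19 and 2.0 FPKM), both factors of the early pancreas bud, reached 1 FPKM in replicates 2 and 3 only.

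Markers of cells that are not carcinoma cells were mostly near 0. The labels name a single cell line, so these values are levels in that culture and not shares of cell types in a tissue. The 12 endothelial rows included no expressed row and 6 listed at 0, and the summed level of an 8-gene panel was 0.14 to 0.71 FPKM over the libraries. Of 16 leukocyte rows 10 were listed at 0, PTPRC, CD3E and MS4A1 among them, and the only expressed row joined CD68 to EIF4A1 and SENP3. An 8-gene leukocyte panel without CD4 and CD68 summed to 0.08 to 0.76 FPKM, and CD4 had 0.92, 0.75 and 1.15 FPKM (chosen after its values were seen). Of 15 hepatic rows 10 were listed at 0 and of 13 muscle rows 11, and the only expressed row of each list was joined (SRPRB with TF, and TTN with CCDC141).

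Of 14 fibroblast or stellate rows 4 were expressed and 5 listed at 0, with a median of 0.32 FPKM. A 10-gene panel summed to 191 to 207 FPKM, nearly all of it COL3A1. COL1A2, a chain of type I collagen, had 18.3, 17.6 and 18.4 FPKM, whereas its partner chain COL1A1 had 0.36, 0.47 and 0.92 FPKM. RGS5, a regulator of G protein signalling, had 2.93, 2.27 and 1.5 FPKM, and the joined row of FIP1L1, PDGFRA and AC058822, which includes a growth factor receptor of fibroblasts, had 1.5, 1.81 and 1.62 FPKM. DCN, FAP and POSTN, which mark stromal fibroblasts, were listed at 0 in all 3. COL5A2 had a mean of 49.1 FPKM (chosen after its values were seen), and of 45 single-name collagen rows 11 were expressed.

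Of 20 neuronal or neuroendocrine rows 5 were expressed and 0 were listed at 0 in all 3. SNAP25, a vesicle fusion protein, had 3.05, 2.53 and 2.81 FPKM, UCHL1, a ubiquitin hydrolase, had 1.55, 2.14 and 2.38 FPKM, and SCG2, a secretory granule protein, had 1.52, 1.95 and 1.28 FPKM. The joined row of TCF25, MC1R, TUBB3 and AC092143 had a mean of 5.11 FPKM, and that of ARHGAP11A and SCG5 a mean of 4.78 FPKM. The median of the list was 0.55 FPKM, under that of all rows.

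Of 23 rows of genes often altered in pancreatic carcinoma, 17 were expressed (73.9%, against 48.5% of all rows) and 0 were listed at 0 in all 3, with a median of 4.80 FPKM. The joined row of SMAD4 and ELAC1 had 4.56, 4.62 and 5.73 FPKM. The highest of the list was the splicing factor SF3B1 with 32.3, 30.6 and 36.9 FPKM. RBM10, another splicing regulator, had 10.4 ± 1.58 FPKM, and GNAS, the stimulatory G protein subunit, 10.1 ± 0.603 FPKM.

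DNA repair members of the list were also expressed, with means of 8.89 FPKM for BRCA2, 6.78 for ATM, 5.96 for BRCA1 and 5.65 for PALB2. Among chromatin regulators, KMT2C had a mean of 9.45 FPKM and ARID1A 2.97 FPKM, and the row joining KMT2D to PRKAG1 had 4.45 FPKM. KDM6A, an X-linked histone demethylase, stood apart from them with 0.15, 0.06 and 0 FPKM. In the TGF-beta branch, the receptors TGFBR1 and ACVR1B had means of 3.78 and 3.89 FPKM, whereas TGFBR2 had 0.45, 0.25 and 0 FPKM. The stress kinase MAP2K4 had a mean of 7.14 FPKM and STK11, an energy-sensing kinase, 2.76 FPKM. The joined row of SUPT4H1 and RNF43 had 0.74, 1.40 and 1.03 FPKM and was the only member above 1 FPKM in some libraries alone.

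The members on the short arm of chromosome 9 were all near 0. CDKN2A, which encodes the cell cycle inhibitor p16, had 0.08, 0 and 0.14 FPKM, its neighbour CDKN2B had 0.09, 0 and 0 FPKM, and MTAP, a purine salvage enzyme, had 0.05, 0.11 and 0.04 FPKM. The neighbours in RefSeq order, looked at after these values were seen, were low as well. KLHL9 had a mean of 0.19 FPKM, DMRTA1 0.023, ELAVL2 0.31 and TUSC1 0.14 FPKM, and the type I interferon genes between KLHL9 and MTAP were listed at 0. The next gene above 1 FPKM was CAAP1 with 4.05, 3.09 and 3.30 FPKM, followed by PLAA with 7.98, 8.52 and 6.97 FPKM. Loss of CDKN2A from the genome of this line is a known background fact, but DNA was not measured here and its part in these levels was not tested.

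**Figure D3:**
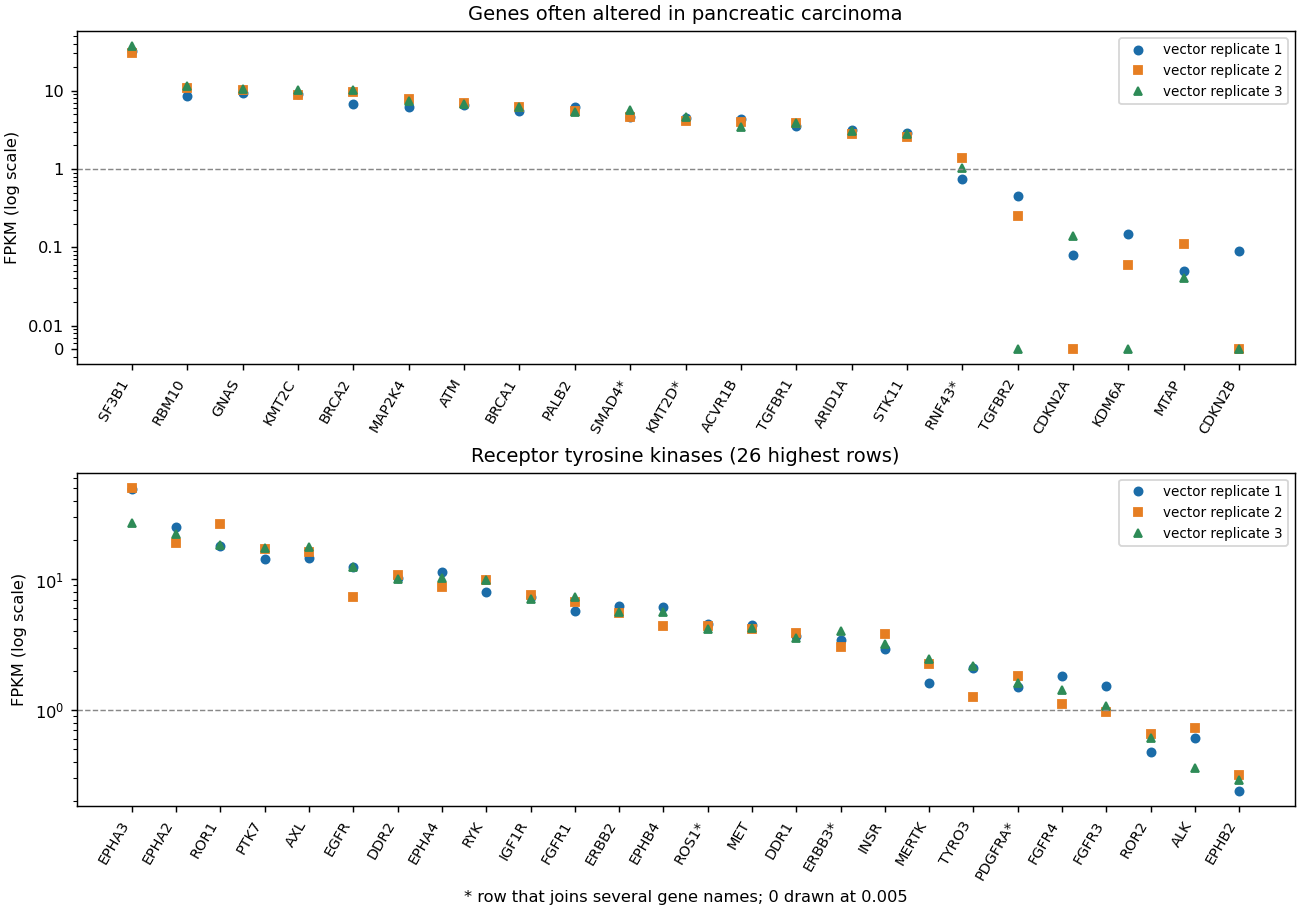
FPKM on a log axis in each vector library for 21 of the 23 rows of genes often altered in pancreatic carcinoma (top) and for the 26 highest of 54 receptor tyrosine kinase rows (bottom), ordered by mean; symbols mark the replicates, asterisks mark rows that join several names, the dashed line is at 1 FPKM and 0 is drawn at 0.005. The drivers fall in a gradual slope from SF3B1 to STK11, followed by the joined row with RNF43 near 1 FPKM and by 5 rows under 0.5 FPKM in every library, TGFBR2, CDKN2A, KDM6A, MTAP and CDKN2B.

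Receptor tyrosine kinases pass growth and guidance signals from the cell surface. Of 54 rows 22 were expressed and 11 listed at 0, beside 48.5% and 25.1% of all rows. The median was 0.24 FPKM. EPHA3, a receptor for membrane-bound ephrins, was the highest with 49.3, 50.2 and 26.9 FPKM, low in replicate 3. EPHA2 had 25.3, 18.9 and 22.5 FPKM, the Wnt5-binding receptor ROR1 had 18.03, 26.9 and 18.3 FPKM, and the pseudokinase PTK7 had 14.4, 17.0 and 17.4 FPKM. EPHA2 and ROR1 overlapped in their ranges, as did PTK7 and AXL. EGFR had 12.5, 7.38 and 12.4 FPKM, ERBB2 6.22, 5.52 and 5.59 FPKM, and MET a mean of 4.29 FPKM (these 3 were chosen after their values were seen). KIT, FLT3, KDR and NTRK2, chosen in the same way, were among those listed at 0 in every library.

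Of 23 rows of surface proteins studied as therapy or imaging targets, 13 were expressed, beside 48.5% of all rows. The median was 2.10 FPKM. TFRC, the transferrin receptor, had 60.02, 62.9 and 25.4 FPKM and was low in replicate 3. SLC39A6, a zinc transporter, had 19.1, 16.8 and 19.1 FPKM. PSCA, PROM1 and NECTIN4 were listed at 0 in all 3, and mesothelin, encoded by MSLN, had a mean of 0.18 FPKM (both statements chosen after the values were seen). Of 14 mucin rows only MUC20 (1.57, 2.08 and 1.75 FPKM) and the joined MUC1 row were expressed, and 5 were listed at 0, namely MUC3A, MUC7, MUC15, MUC17 and MUC21.

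Of 40 rows of axon guidance ligands and receptors, which also steer the migration of carcinoma cells, 16 were expressed. That is not far under the 48.5% of all rows, and the median was 0.86 FPKM. The secreted semaphorin SEMA3A had 22.9, 22.8 and 22.9 FPKM and SEMA3C 13.9, 14.2 and 14.5 FPKM. The ephrin ligand EFNA5 had 12.6, 13.8 and 12.8 FPKM, and the semaphorin receptor PLXNB2 12.3, 12.4 and 12.4 FPKM. SEMA3A and PLXNB2 were among the 10 rows of smallest spread at this level.

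Wnt signalling, in which secreted ligands stabilise beta-catenin through Frizzled receptors, was measured separately for ligands and for the rest of the pathway. Of 19 ligand rows 1 was expressed, WNT2B with 1.5, 1.03 and 2.16 FPKM, and 10 were listed at 0. Of 35 receptor, effector and inhibitor rows 24 were expressed, with a median of 2.44 FPKM. The Frizzled receptor FZD6 had 7.4, 7.5 and 8.51 FPKM. The secreted inhibitor DKK1 had 11.99, 12.1 and 10.1 FPKM. GSK3B, the kinase that marks beta-catenin for breakdown, had 8.79, 8.73 and 2.78 FPKM, low in replicate 3. In the Hedgehog pathway 4 of 14 rows were expressed, the signal transducer SMO (3.95, 4.33 and 3.06 FPKM), the inhibitor SUFU (mean 1.85), KIF7 (1.80) and the ligand exporter DISP1 (1.28 FPKM).

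In the JAK-STAT pathway, which carries cytokine signals to the nucleus, 18 of 28 rows were expressed, with a median of 3.80 FPKM. The phosphatase PTPN11 had 25.1, 24.7 and 27.5 FPKM and the kinase JAK1 13.5, 13.1 and 13.8 FPKM. SOCS6, of the family of signalling suppressors, had 17.5 and 14.6 FPKM in replicates 1 and 2 and 0.62 FPKM in replicate 3. Of 48 nuclear receptor rows 18 were expressed and 12 listed at 0. The COUP factors NR2F2 (13.0, 14.1 and 14.9 FPKM) and NR2F1 (10.96, 11.2 and 9.6 FPKM) were the highest, followed by the clock repressor NR1D2 (5.68 ± 1.76 FPKM) and the glucocorticoid receptor NR3C1 (5.65 ± 0.562 FPKM). The receptors for oestrogen and progesterone, ESR1 and PGR, were listed at 0 (chosen after their values were seen).

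Rows of the metabolic lists were expressed more often than the 48.5% of all rows. Of 28 glycolysis rows 21 were expressed, with a median of 8.88 FPKM. GAPDH had 273, 261 and 269 FPKM, LDHA, which makes lactate, 106, 109 and 109 FPKM, ENO1 96.6, 93.0 and 94.1 FPKM, and TPI1 80.8, 77.7 and 87.8 FPKM. Of the 4 rows listed at 0, PGK2, PGAM2 and PKLR are isoforms used in other tissues (chosen after their values were seen). For glutamine and aspartate use 19 of 26 rows were expressed, with a median of 6.58 FPKM. After SLC38A2 came the mitochondrial transaminase GOT2 with 46.8, 42.4 and 47.9 FPKM, the glutamine importer SLC1A5 with 43.2, 38.2 and 28.8 FPKM and the proline synthesis enzyme ALDH18A1 with 25.7, 27.9 and 24.6 FPKM. Glutamine synthetase, encoded by GLUL, had a mean of 0.20 FPKM (chosen after its values were seen).

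Nucleotide synthesis was expressed in 32 of 33 rows, with a median of 9.55 FPKM. HPRT1, which salvages purines, had 40.9, 46.0 and 43.4 FPKM and TYMS, which makes thymidylate, had 34.2, 39.8 and 43.2 FPKM. Of 41 autophagy rows 35 were expressed, with a median of 4.18 FPKM. They were led by the lipid kinase subunit PIK3R4 (19.2, 19.2 and 18.7 FPKM) and the cargo receptors SQSTM1 (15.2, 13.4 and 14.5 FPKM) and NBR1 (13.6, 12.2 and 10.7 FPKM). Of 17 hyaluronan and matrix-processing rows 12 were expressed, with the collagen hydroxylase PLOD1 (27.0 ± 1.21 FPKM) and the hyaluronan receptors HMMR (19.3 ± 1.44 FPKM) and CD44 (14.5 ± 0.906 FPKM) among the highest. Of the hyaluronan synthases HAS3 had a mean of 1.77 FPKM, and HAS1 and HAS2 were listed at 0 (chosen after their values were seen).

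All 25 proliferation rows were expressed, with a median of 20.1 FPKM. TOP2A, which untangles DNA before mitosis, had 111, 115 and 122 FPKM, and the replication clamp PCNA had 110.5, 110.7 and 112 FPKM. CDC20, an activator of mitotic exit, had 69.6, 78.1 and 79.8 FPKM, and the mitotic cyclin CCNB1 had 54.3, 58.1 and 57.9 FPKM. Every row was also expressed among 17 reference genes, 9 elongation factors, 26 chaperones, 46 large and 32 small ribosomal subunit rows. Their medians were 22.6, 36.6, 48.5, 43.4 and 54.0 FPKM. Of 29 cytoskeleton rows 27 were expressed, with a median of 32.1 FPKM. These housekeeping groups all lay far above the 1.22 FPKM of all rows.

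At the other end were families used in specialised tissues. Of 383 olfactory receptor rows 0 were expressed and 340 (88.8%) were listed at 0, against 46.8% and 26.5% of the 17278 rows with a single name. Keratin-associated proteins of hair were listed at 0 in 88 of 90 rows and beta-defensins, antimicrobial peptides, in 38 of 39. Among 22 bitter taste receptors 5 were expressed, led by TAS2R31 with 5.38, 4.96 and 5.53 FPKM. Family members share close sequence, so single values there are uncertain. These families were picked by name stem, and the members named are among the highest of each.

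Some families combined rows listed at 0 with a few high ones. Of 10 metallothionein rows, which bind metals, 3 were expressed and 6 listed at 0, and MT1E had 124, 112 and 111 FPKM and MT2A a mean of 42.3 FPKM. Of 42 chemokine rows 7 were expressed and 29 listed at 0, and the neutrophil attractant CXCL1 had 73.8, 67.6 and 59.7 FPKM. Of 16 aldehyde dehydrogenase rows 10 were expressed, with a median of 3.38 FPKM, and ALDH1A1 was far above the others. Over all single-name rows 46.8% were expressed and 26.5% listed at 0, and the 2 largest of these families did not lie far from that expressed share. Of 340 solute carrier rows 144 (42.4%) were expressed and 24.1% listed at 0. Of 384 rows with ZNF names 207 (53.9%) were expressed and 10.7% listed at 0, but the highest, ZNF121, had only 18.5, 18.9 and 20.3 FPKM.

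**Figure D4:**
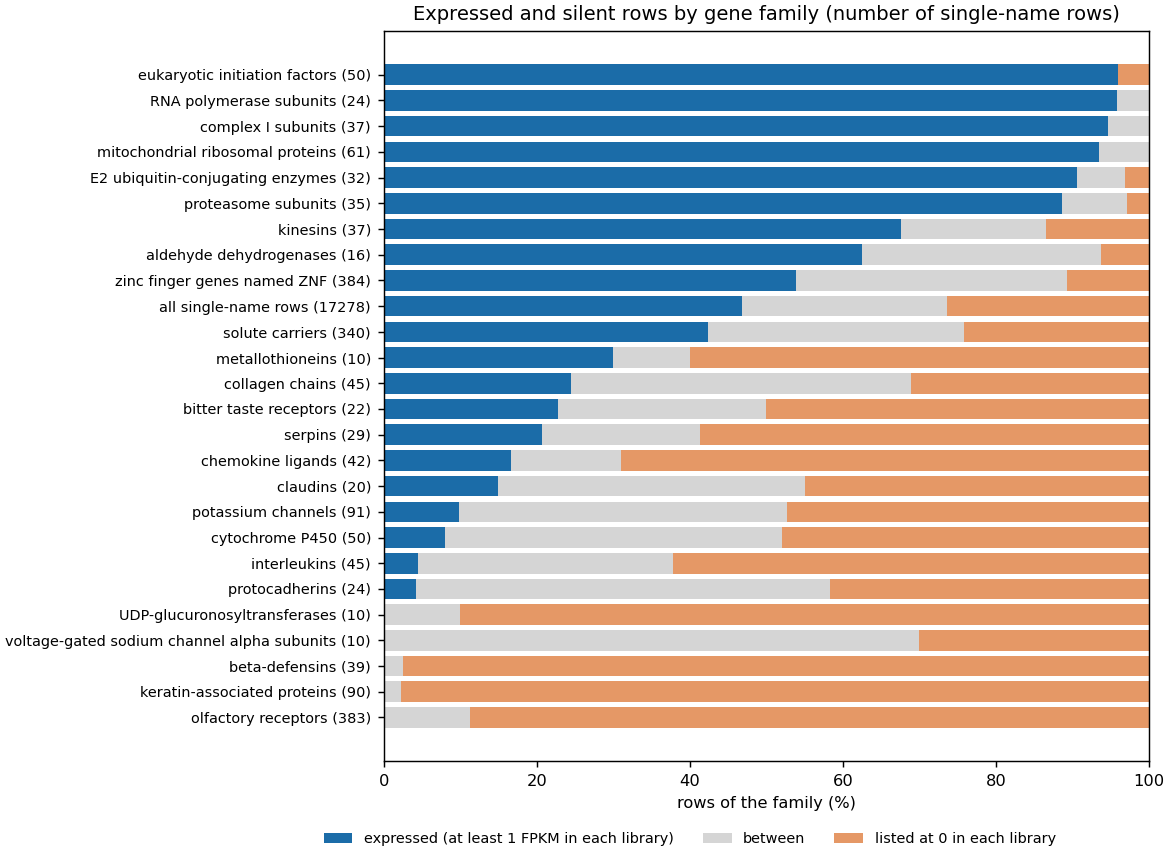
Share of the single-name rows of each gene family that were expressed (blue), listed at 0 in all 3 vector libraries (orange) or between (grey), with the number of rows in brackets. Initiation factors, RNA polymerase and complex I subunits were expressed in over 90% of rows, and the expressed share was 0 for olfactory receptors, keratin-associated proteins, beta-defensins, voltage-gated sodium channel alpha subunits and UDP-glucuronosyltransferases.

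Few germline and HOX rows were expressed. Of 38 cancer-testis rows, genes normally limited to germ cells, 31 were listed at 0 and 1 was expressed, PAGE1 with 1.55, 1.20 and 1.79 FPKM. Of 10 other MAGE family rows, listed as broadly expressed genes, 5 were expressed, near the 48.5% of all rows. That count was 8 at a minimum of 0.5 FPKM and 2 at 5 FPKM. They were led by MAGED1 with 13.5, 15.9 and 19.8 FPKM and MAGEF1 with 6.36, 6.39 and 6.40 FPKM, while NDN and MAGEL2 were at or near 0. Among HOX genes, which set body position, 2 of 9 HOXA rows were expressed, among them HOXA2 (1.48, 1.95 and 1.34 FPKM). None of the 8 HOXB, 5 HOXC and 8 HOXD rows reached 1 FPKM in all 3 libraries. Of 27 imprinted rows 9 were expressed, with GNAS, UBE3A (7.94, 7.49 and 4.82 FPKM), BLCAP (4.02 ± 0.150 FPKM) and PHLDA2 (3.99 ± 0.936 FPKM) the highest.

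Some runs of neighbouring genes were all listed at 0 or all expressed. The run length that random order would give was not worked out. In RefSeq order the longest run of genes listed at 0 had 65 genes on chromosome 11, from OR4B1 to APLNR and mostly olfactory receptors. The next had 48 on chromosome 17, from KRT12 to KRT36, and 46 on chromosome 1, from FLG2 to S100A7, which holds genes of the outer skin. The longest run of expressed genes had 26 on chromosome 9, from GOLGA2 to NTMT1. The long runs of genes listed at 0 held neighbouring members of the same families.

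By chromosome, the share of expressed rows was 35.8% on X and 47.8% on the autosomes, with 42.6% of X rows listed at 0. Chromosome 21 had 37.3% and chromosome 11 had 41% expressed. Leaving out olfactory receptor, keratin-associated protein and beta-defensin names, a choice made after seeing the data, both came to 48.6%, against 35.9% on X. That choice took chromosome 11 from 1139 to 961 rows and chromosome 21 from 193 to 148, but X only from 779 to 778. It could hardly change the X share, and other families listed at 0 on X were not left out. Expressed X rows had a median of 6.10 FPKM, beside 5.12 FPKM over all expressed rows with a chromosome. Fewer X rows were expressed, but those expressed were not low.

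The 3 libraries were close for most expressed rows. Of the 8858, the highest library was within 1.5 times the lowest in 6674 (75.3%) and within 1.1 times in 1299 (14.7%). The median SD of log2(FPKM + 0.5) was 0.16, with 5th and 95th percentiles of 0.036 and 0.52, and the median coefficient of variation was 12.4%. Over all rows of a level class, mixed rows included, the median SD fell with level, from 0.21 at a mean of 1 to under 5 FPKM to 0.064 at 100 FPKM or more. Across genes, the library pairs had Pearson correlations of 0.95 on the log2 scale and Spearman correlations of 0.93, which genes sharing a library make a description only. Each library was the farthest from the other 2 in 32.9% to 33.9% of rows, so none stood apart as a whole.

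Gene lists with at least 10 expressed members moved little between libraries. Among them, the largest gap between libraries in the median log2 deviation was 0.12, for epithelial junction genes. Lists with fewer expressed members varied more widely. The gap was 0.40 for 3 simple keratin rows and 0.34 for 4 Hedgehog rows, but 0.021 for 4 fibroblast or stellate rows. Glycolysis rows were highest in replicate 3 for 14 of 21 and in replicate 2 for 0 of 21, beside 3269 and 2759 of 8858 over all expressed rows. The gap between libraries in the glycolysis median was only 0.073 on the log2 scale.

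Single rows varied far more. An SD above 1 on the log2 scale was found for 61 expressed rows (0.689%). That count leaves out every row under 1 FPKM in any library. With mixed rows included, an SD above 1 was found for 85 rows at a mean of 1 to under 5 FPKM. It was found for 35 at 5 to under 10, 22 at 10 to under 50 and 2 at 100 FPKM or more. Among rows with a mean of at least 10 FPKM, mixed rows included, the largest SD was for MGAT2, a Golgi glycan enzyme, with 18.5, 15.2 and 0 FPKM. TGOLN2, a trans-Golgi protein, had 35.6, 39.2 and 3.82 FPKM, and TAF7, a subunit of the general transcription factor TFIID, had 22.9, 22.04 and 4.08 FPKM. For these 3, for SOCS6 and for EHF, replicate 3 was the low library. CITED2, a transcriptional coregulator, was high in replicate 2 alone, with 6.79, 63.0 and 6.82 FPKM. DESI2 (27.0, 4.01 and 27.7 FPKM) and SF3B5 (19.5, 3.76 and 29.3 FPKM) were low in replicate 2. SBDS, a ribosome maturation factor, was high in replicate 1 (28.1, 4.25 and 5.79 FPKM), and LASP1, an actin-binding protein, in replicate 3 (3.04, 5.60 and 22.6 FPKM).

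The closest rows were NUP160, a nuclear pore subunit, with 25.4 FPKM in each library, DHX29, a helicase of translation initiation, with 12.8, 12.9 and 12.8 FPKM, and RPN1, a subunit of the N-glycosylation complex, with 52.9, 53.2 and 53.2 FPKM. ANXA2, an annexin, had 27.1, 27.1 and 27.3 FPKM, and DYNC1I2, a dynein chain, 10.6, 10.5 and 10.6 FPKM.

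Some rows were listed at 0 in a library and well above it in another. RRAGA, a GTPase that reports amino acids to mTORC1, had 29.97, 0 and 0 FPKM. IRF2BP2, a transcriptional corepressor, had 14.2, 0 and 13.6 FPKM, and NCBP2-AS2 had 0, 0 and 8.40 FPKM. IGFBP3, which binds insulin-like growth factors, had 6.80, 5.42 and 0 FPKM, MARS2 had 0, 7.31 and 4.86 FPKM, ARF6 0, 6.02 and 0 FPKM and EMC6 5.19, 3.08 and 0 FPKM. In all, 820 rows were at 0 in exactly 1 library and 976 in 2. Of those at 0 in 1 library, 39 had at least 1 FPKM in both others.

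These rows were more frequent among genes with few exons, a feature examined after their values were seen. Of the single-name rows, 98.9% matched a longest-transcript exon number in GENCODE 29. Among rows of at least 1 FPKM in some library, the share listed at 0 in another was 6.39% (17 of 266) for genes of 1 exon, 3.75% for 2 exons and 2.65% for 3. It was 1.68% for 4 to 5 exons, 0.664% for 6 to 10 and 0.126% (5 of 3956) for 11 or more. The replicate spread of rows with a mean of at least 1 FPKM, mixed rows included, differed by exon number within a level class as well. At a mean of 3 to 10 FPKM the median SD on the log2 scale was 0.19 for 1 to 3 exons and 0.14 for 11 or more, and over 30 FPKM it was 0.13 and 0.067. The expressed share went from 18.5% of rows for 1 exon to 58.6% for 11 or more. Transcript length and the counting of reads differ with exon number, and their part was not tested.

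**Figure D5:**
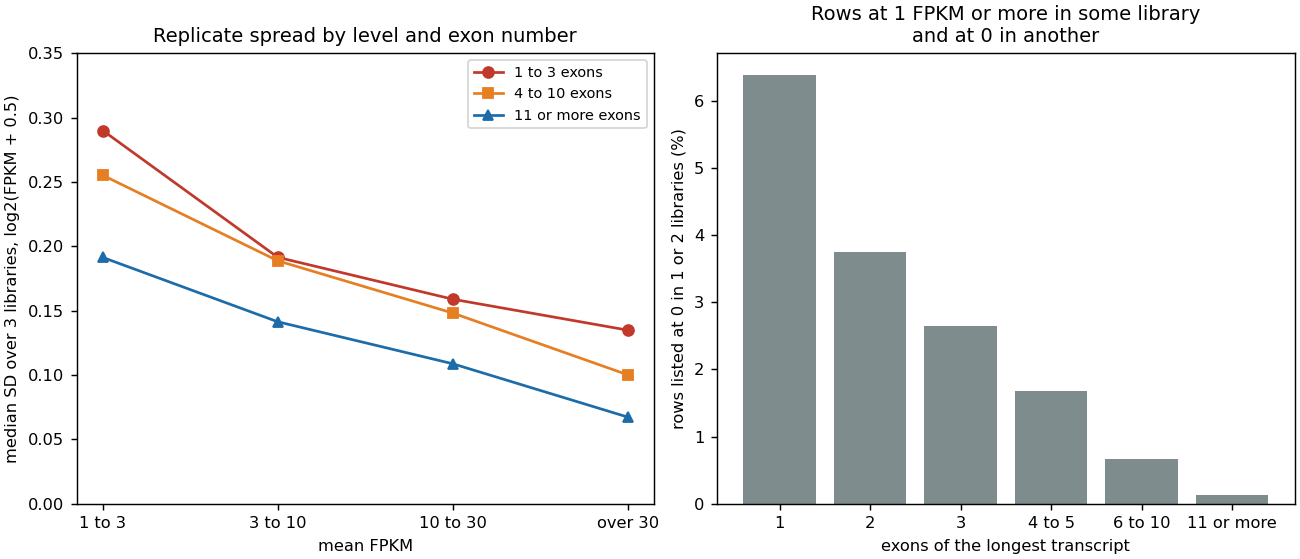
Left, median SD over the 3 vector libraries of log2(FPKM + 0.5) for rows with a mean of at least 1 FPKM, mixed rows included, by class of mean FPKM, with 1 line per exon class; right, share of rows of at least 1 FPKM in some library that were listed at 0 in another, by exons of the longest transcript. The line for 11 or more exons lies lowest in every level class, and the bars fall from 6.39% for 1 exon to 0.126% for 11 or more.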

How the data were processed

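Gene-level RNA sequencing values of the 3 vector-control libraries were taken from the table the authors deposited, which gives FPKM with at most 2 decimals per the file headers. Reads were handled with HISAT2, cutadapt and FastQC on build hg19, per the submitters' processing notes. Tool versions, and what computed the FPKM values, are not given in the sources used. Total RNA was the starting material per the labels. A search for whole reads gave no answer: of 1596 ratios among 532 low rows, 21.1% lay within 0.1 log2 of a power of 2. By even spread 20% would. Values of 2 decimals are coarse at this level, and many ratios of small counts are not powers of 2. The search therefore cannot tell whether whole reads underlie the values. Depth stays unknown, and precision rests on the spread of 3 libraries.

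Levels, ranks, means and SDs were computed per row, with no test, because there is 1 group. Spread used log2(FPKM + 0.5). A deviation is a library's log2 value minus the mean of the 3, taken as a median over a list's expressed rows. The 45 gene lists and the choice of the part were made with earlier results of these data known. A list of long noncoding RNAs matched 0 rows, and no row names LINC00901. Named genes were the 25 highest rows, the 4 highest expressed rows of each list, its rows listed at 0 where it has at most 15, all rows of the driver, lineage factor, simple keratin, ductal and mitochondrial lists, the fixed cell type markers, the 10 largest and 10 smallest spreads at a mean of at least 10 FPKM, and the 8 highest rows listed at 0 in another library. The rule also took promoters of the highest keratin rows; those of KRT18 and KRT19 were not used here. The 25 name-stem families, exon numbers, runs and chromosome 9 neighbours were added after seeing the data.

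Exon numbers came from GENCODE 29, and chromosomes and gene order from RefSeq (98.8% of rows matched), both by symbol and of another build than hg19. A planned comparison of promoter features between classes was void, because 78.6% of single-name rows had a promoter entry, under the 80% required. The spread calculation was tested on simulated data. Alternatives were other minimums (0.5 and 5 FPKM), the mean at the minimum, rescaling to a common sum, joined rows left out, pseudocounts 0.1 and 1, no filter, median centring and leaving out each library. Computations ran in Python 3.11.15 with numpy 2.4.6, pandas 2.3.3 and scipy 1.17.1, and figures were drawn with matplotlib 3.10.9. Some items that these rules take are not reported here.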

Additional observations from a re-analysis of the deposited data

How the results depend on the processing

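The number of rows called expressed depends on the minimum. At a minimum of 5 FPKM 3783 rows were expressed and 8639 low, 306 rows over all lists were expressed in place of 478, and the expressed share was 18.6% on X and 20.6% on the autosomes, so the gap between them was narrower. With the mean at the minimum, 508 rows were mixed. Rescaled to a TPM-like common sum, 523 rows were low. The rescaling raised every value while the minimum stayed at 1, so this count mainly reflects a lower effective minimum. Leaving out a library gave 784 to 815 mixed rows. Without joined rows, the 100 highest took 18.8% of the sum. With no filter on low values, 179 rows had an SD above 1 in place of 61, and with other pseudocounts 45 and 89. Of 165 named rows with a mean of at least 1 FPKM, 12 moved by over 1.5 times when a library was left out, and 0 under median centring. Apart from SOX9, which had a mean of 5.64 FPKM without replicate 1 in place of 9.04, the 12 were named for a large spread or a 0: EHF, CITED2 (6.81 FPKM without replicate 2 in place of 25.5), SF3B5, SBDS, LASP1, RRAGA, NCBP2-AS2, MARS2, IGFBP3, ARF6 and EMC6. Of 220 list counts under alternatives, 32 moved by more than 1.5 times, 25 of them at 5 FPKM and 3 on leaving out a library, each a list with 0 or 1 expressed row. No paired analysis was possible because only 1 group was used and no test was made. Unknown depth limits what a low value or a 0 shows.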

Other observations

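Members of further families, and other members of the chemokines, are given here, named after their values were seen. Of 45 rows whose name is IL, a number and at most 1 letter, 2 were expressed, IL1A, an inflammatory cytokine, with 1.58, 2.59 and 1.35 FPKM and the receptor chain IL4R with 2.07, 2.03 and 1.41 FPKM. Other interleukin receptor names lie outside this stem. A second neutrophil-attracting chemokine, CXCL8, had 27.3, 27.4 and 26.4 FPKM, and CXCL5 had 9.43, 11.3 and 3.43 FPKM. Of 91 potassium channel rows 9 were expressed, led by KCNK5, a background channel, with 6.30, 6.57 and 5.10 FPKM and KCNN4, a calcium-activated channel, with 4.95, 4.13 and 5.59 FPKM. Of 50 cytochrome P450 rows 4 were expressed and 24 listed at 0, and CYP27C1 had 7.94, 7.46 and 7.14 FPKM. CYP24A1, which breaks down vitamin D, had 2.85, 4.69 and 0 FPKM.

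Of 37 kinesin rows, motors that include the drivers of mitosis, 25 were expressed. KIF2C had 38.6, 35.7 and 43.7 FPKM and KIF20A 26.6, 25.4 and 23.4 FPKM. Proteasome subunits were expressed in 31 of 35 rows with a median of 14.5 FPKM, and mitochondrial ribosomal proteins in 57 of 61 with a median of 5.72 FPKM, close to the 5.71 FPKM of 37 complex I subunit rows. The nuclear-encoded parts of these mitochondrial complexes thus had values in nearly every row, whereas the mitochondrially encoded rows were all listed at 0.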
